A study of Mus musculus with 6 samples.

Results

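Edn1, Bdkrb2, Ptgs2 and Olr1 are 4 genes of vascular tone and vessel wall inflammation. They were taken by symbol from a deposited table of 149 genes that compares reperfused mouse hearts with and without preconditioning by trimethylamine N-oxide (TMAO), and each symbol matched 1 row. The TMAO+IR group held 3 libraries from male wild-type C57BL/6 mice that drank 0.12% TMAO for 4 weeks before the operation and during it. The IR group held 3 libraries from mice that had the operation without TMAO. Every mouse of both groups had its left anterior descending coronary artery occluded for 45 min and reopened for 24 h, and RNA came from the injured region. Both groups therefore carry ischaemia-reperfusion, and no unoperated heart and no heart with TMAO alone was analysed here. The labels number the libraries without naming animals, so the spread given below is that between libraries and may be technical.

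The table lists only genes that passed the authors' own test and a 2-fold limit in this contrast, so the 4 genes were selected on the same contrast that is described below. In the authors' deposited table the largest adjusted p-value (FDR) of any listed gene is 0.0487, for Aim2, and the smallest difference is 2.002-fold, for Cyp1b1. Genes just outside these limits were not analysed here. The 4 genes had an FDR of 0.0304 for Edn1, 0.0202 for Bdkrb2, 0.00895 for Ptgs2 and 0.0300 for Olr1 in the authors' deposited table. By FDR, Ptgs2 ranked 73, Bdkrb2 117, Olr1 130 and Edn1 131 among the 149 genes. With 1 library left out the lowest log2 fold change from counts was 0.99 for Edn1, 0.88 for Ptgs2 and 0.87 for Olr1, each less than 2-fold. For Bdkrb2 it was 1.09. The deposited fold changes are ratios of mean FPKM and not of counts. For Olr1 the 2 units differ, with 3.07-fold in mean FPKM over all libraries, so its value from counts does not place it under the authors' limit. All differences between TMAO+IR and IR below are descriptions of selected genes and carry no test.

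Endothelin 1, the product of Edn1, is a peptide made mainly by endothelial cells that constricts vessels through receptors on smooth muscle. Bradykinin acts the other way in most vessels: its B2 receptor, encoded by Bdkrb2, sits on endothelium and smooth muscle and drives the release of nitric oxide and prostacyclin. Ptgs2 encodes cyclooxygenase 2, the inducible enzyme that turns arachidonic acid into the precursor of prostaglandins and thromboxane in endothelium, fibroblasts and myeloid cells. Olr1 encodes LOX-1, a lectin-like scavenger receptor for oxidised low density lipoprotein on activated endothelium and macrophages.

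The recovered depth of the libraries ranged from 18371383 to 22442709 fragments. FPKM is a level per kilobase of transcript and sequencing depth, as deposited. A scaled count is a read count divided by the relative size of its library, so that all 6 libraries stand at 1 common depth. Of 10 cardiomyocyte markers Myh7 was the only one in the table, so the tissue label could not be checked further. Myh7, which encodes a slow myosin heavy chain, had 27.5, 29.3 and 56.5 FPKM in TMAO+IR replicates 1, 2 and 3 and 12.5, 8.90 and 6.29 FPKM in IR replicates 1, 2 and 3. Relative to the mean of each gene over the libraries, the median listed gene was highest in TMAO+IR replicate 2, at 0.73 on the log2 scale, and lowest in IR replicate 3, at -0.86. In bulk tissue, more cells of a type and more RNA per cell cannot be told apart.

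All 4 genes were higher in TMAO+IR hearts, by 2.23-fold to 2.54-fold in counts. The scaled counts of the 4 genes did not overlap between the groups. Among the 149 listed genes 81.9% were called higher in the edgeR refit of the list, and 80.5% had scaled counts above all IR libraries in every TMAO+IR library, so nothing particular to these 4 genes follows from either count. The order of the levels was the same in each of the 6 libraries, with Ptgs2 highest in FPKM, then Edn1, Olr1 and Bdkrb2. Across libraries of a group some neighbours in that order overlapped. In TMAO+IR, Olr1 reached 3.01 FPKM and Edn1 went down to 2.78 FPKM, though with 1 fixed transcript length Olr1 would reach only 2.15 FPKM. In IR, Edn1 reached 2.68 FPKM and Ptgs2 went down to 2.15 FPKM. Bdkrb2 stayed below Olr1 without such overlap, at up to 1.13 FPKM against 1.84 FPKM or more in TMAO+IR, and at up to 0.38 against 0.44 FPKM or more in IR. Both margins were narrow. With 1 fixed transcript length Olr1 would go down to 1.26 FPKM in TMAO+IR, and the 0.38 and 0.44 FPKM in IR rest on 32 and 35 reads. Among the 149 listed genes Ptgs2 ranked 44 from the top by mean FPKM in TMAO+IR, and Bdkrb2 ranked 124.

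**Figure D1:**
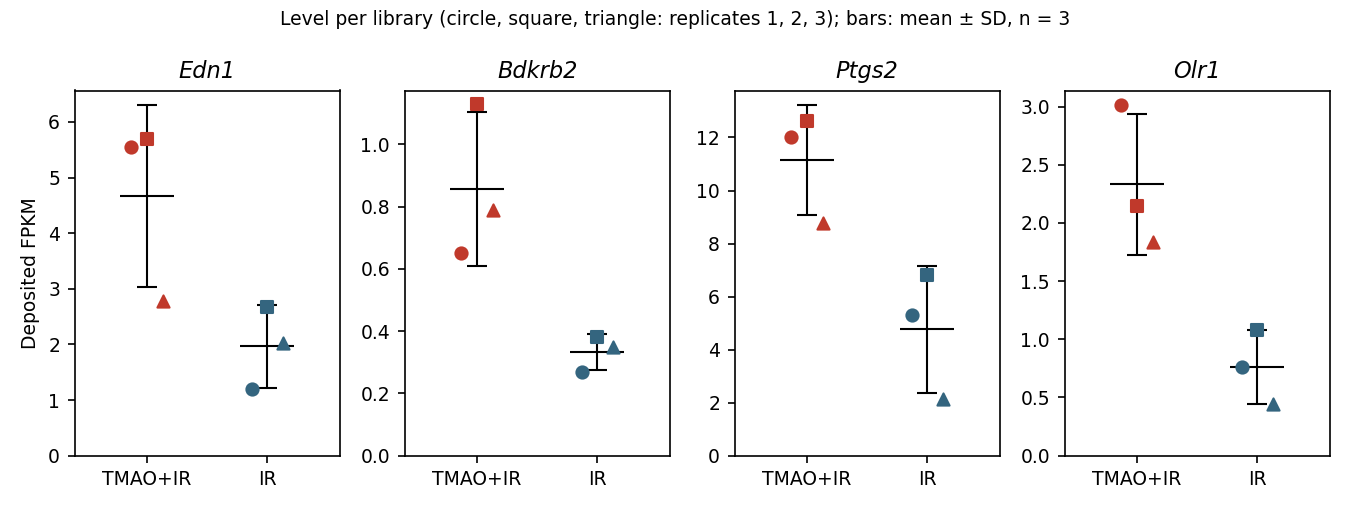
Deposited FPKM (y axis, linear, from 0) of the 4 genes in each library, TMAO+IR left and IR right in each panel; points are libraries and bars the mean and SD of 3. Every TMAO+IR point lies above every IR point, narrowly for Edn1, where the lowest TMAO+IR library stands at 2.78 and the highest IR library at 2.68 FPKM.

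Edn1, the ligand of the endothelin system, had 5.54, 5.69 and 2.78 FPKM in TMAO+IR replicates 1, 2 and 3, against 1.20, 2.68 and 2.02 FPKM in IR replicates 1, 2 and 3. Replicates 1 and 2 of TMAO+IR stood apart from the rest, whereas TMAO+IR replicate 3 lay barely above IR replicate 2. The mean was 4.67 ± 1.64 FPKM in TMAO+IR and 1.97 ± 0.74 FPKM in IR (SD, n = 3 each). From counts the fold was 2.37, a log2 fold change of 1.25 with a standard error (SE) of 0.34 in edgeR. The raw counts of the 2 adjoining libraries were 124 in TMAO+IR replicate 3 and 126 in IR replicate 2. At a common depth these became 125 (exact Poisson 95% interval 104 to 149) and 120 (99.9 to 143), so the counting intervals overlap. The lowest TMAO+IR library was 1.04 times the highest IR library, and 5 of the 122 listed higher genes had a smaller gap. The libraries of a group varied more than counting allows, with a coefficient of variation of 35.1% in TMAO+IR and 37.7% in IR, where counting alone gives 7.05% and 10.4%. Edn1 (ENSMUSG00000021367) lies on the plus strand of chromosome 13 at 42301476 to 42307990 (GRCm38), with a single annotated transcript of 5 exons and 2139 bases. Of the 8 genes of the endothelin system, which include both receptors and the converting enzymes, Edn1 was the only one in the table. The others were not analysed here.

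Bdkrb2, the receptor in this set, had 0.65, 1.13 and 0.79 FPKM in TMAO+IR replicates 1, 2 and 3. In IR replicates 1, 2 and 3 it had 0.27, 0.38 and 0.35 FPKM. The groups did not overlap in scaled counts. The lowest TMAO+IR library was 1.68 times the highest IR library, the widest gap of the 4 genes. The exact Poisson intervals of these libraries overlap, at 37.4 to 68.6 in TMAO+IR replicate 1 and 20.8 to 43.0 in IR replicate 2. The mean was 0.86 ± 0.25 FPKM in TMAO+IR and 0.33 ± 0.057 FPKM in IR (SD, n = 3 each), and the fold from counts was 2.54 (log2 1.35, SE 0.34, edgeR). This gene rests on the fewest reads, with 45, 92 and 62 in TMAO+IR and 21, 32 and 30 in IR. In IR its coefficient of variation of 17.9% was no larger than the 19.0% that counting alone gives, and in TMAO+IR it was 29.0% against 12.3%. On the log2(mean FPKM + 1) scale, where a low level weighs little, the log2 fold change was 0.48. Bdkrb2 (ENSMUSG00000021070) spans 105563226 to 105595237 on the plus strand of chromosome 12, with 1 transcript of 3 exons and 3792 bases. Of 14 genes of the kinin system, among them the B1 receptor, the kininogens and the kinin-degrading peptidases, Bdkrb2 was again the only one in the table.

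Ptgs2, the enzyme of the set, had 12.03, 12.63 and 8.78 FPKM in TMAO+IR replicates 1, 2 and 3. In IR replicates 1, 2 and 3 it had 5.31, 6.82 and 2.15 FPKM. The TMAO+IR libraries lay close together, and the wide spread was in IR, where replicate 3 stood lowest. The mean was 11.1 ± 2.07 FPKM in TMAO+IR and 4.76 ± 2.38 FPKM in IR (SD, n = 3 each), a coefficient of variation of 18.6% and 50.1%. The fold from counts was 2.34 (log2 1.23, SE 0.39, edgeR), and without IR replicate 3 the log2 fold change was 0.88. Counts of 814 to 1211 in TMAO+IR and 215 to 668 in IR make counting error small, at 3.16% and 4.68%. Ptgs2 (ENSMUSG00000032487) lies on the plus strand of chromosome 1 at 150100031 to 150108227, with a main transcript of 10 exons and 4453 bases and a second of 358 bases. Of 22 genes of prostanoid synthesis and reception, including Ptgs1, the terminal synthases and the prostanoid receptors, no other was in the table.

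Olr1, the scavenger receptor, had 3.01, 2.15 and 1.84 FPKM in TMAO+IR replicates 1, 2 and 3, against 0.76, 1.08 and 0.44 FPKM in IR replicates 1, 2 and 3. The groups did not overlap, and TMAO+IR replicate 1 was the highest library. Read counts gave another order within TMAO+IR, with 109, 165 and 94 reads, or 124, 160 and 94.5 at a common depth, so that replicate 2 was highest. In IR the reads numbered 56, 85 and 35. In scaled counts the lowest TMAO+IR library was 1.17 times the highest IR library. Of the 122 listed higher genes, 17 had a smaller gap. The exact Poisson 95% intervals of these 2 libraries overlap, at 76.3 to 116 in TMAO+IR replicate 3 and 64.6 to 100 in IR replicate 2. The coefficient of variation of the scaled counts was 26.1% in TMAO+IR and 42.5% in IR, where counting alone gives 9.03% and 13.1%. The mean was 2.33 ± 0.61 FPKM in TMAO+IR and 0.76 ± 0.32 FPKM in IR (SD, n = 3 each), a 3.07-fold difference. From counts the fold was 2.23 (log2 1.15, SE 0.32, edgeR), and without IR replicate 3 the log2 fold change was 0.87. Of 12 scavenger receptors of modified lipoprotein, among them Cd36 and Msr1, Olr1 was the only one in the table.

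For Olr1 the 2 units differ in the transcript length they imply. Dividing a count by its FPKM and its recovered library size gives an implied length. It need not be a length that the authors' quantification used. For Edn1, Bdkrb2 and Ptgs2 this implied length was 99.2% to 101% of the longest annotated transcript in all 6 libraries. For Olr1 it was 1971, 3564 and 2453 bases in TMAO+IR replicates 1, 2 and 3, against 3563, 3579 and 3544 bases in IR. TMAO+IR replicates 1 and 3 thus stood at 55.2% and 68.7% of the longest Olr1 transcript, which has 8 exons and 3572 bases, whereas the other 4 libraries stood at the full length. Olr1 (ENSMUSG00000030162) is a gene of chromosome 6, minus strand, from 129485244 to 129507165, and has 5 annotated transcripts. The long one ends in a 3′ untranslated region of 2422 bases, and the short ones, of 350 to 570 bases, have none annotated. The deposited columns hold no value per transcript. With the full length in every library, Olr1 would stand at 1.66, 2.15 and 1.26 FPKM in TMAO+IR and at 0.76, 1.08 and 0.44 FPKM in IR, a fold of 2.23.

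A change of implied length was not particular to Olr1. Of 119 listed genes with at least 0.25 FPKM and 20 reads in every library, 14 (11.8%) varied by more than 1.5 times in implied length across the libraries. Olr1 ranked 4 among them at 1.82 times, and the median gene varied by 1.08 times. Genes with 1 annotated transcript, 17 of the 119, varied by at most 1.02 times. Such genes have only 1 annotated length, so little variation was possible in them. Edn1 and Bdkrb2 are among these, and the largest variation was that of Bdkrb2. Edn1 had helped to set the library sizes. The implied length fell under 80% of a gene's own longest value in 19, 10 and 12 genes in TMAO+IR replicates 1, 2 and 3 and in 10, 11 and 5 genes in IR replicates 1, 2 and 3.

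**Figure D2:**
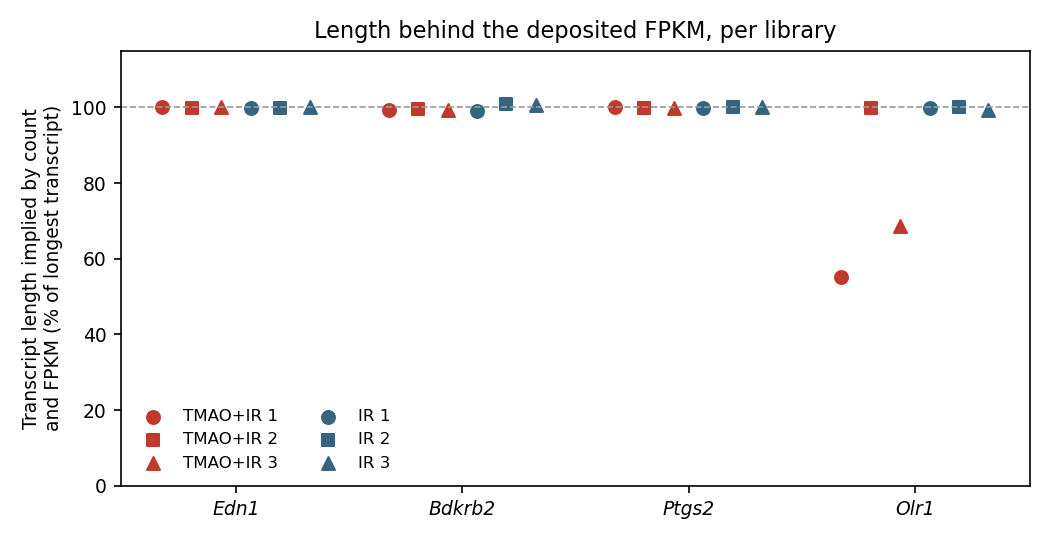
Transcript length implied by count, FPKM and library size (y axis, percent of the gene's longest annotated transcript) for each of the 4 genes in the 6 libraries. Every point lies near 100% except Olr1 in TMAO+IR replicate 1, at 55.2%, and in TMAO+IR replicate 3, at 68.7%.

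Over the libraries the 4 genes did not all share 1 pattern. Each gene was centred on its mean log2 scaled count, and likeness was taken as the root-mean-square difference over the 6 libraries, so that 0 means the same pattern. Ptgs2 and Olr1 differed by 0.19, which made Olr1 the sixth nearest of 148 genes to Ptgs2, with a median gene at 0.46. Seen from Olr1, Ptgs2 was the 14th nearest, with a median gene at 0.39. Both were highest in TMAO+IR replicate 2 and lowest in IR replicate 3, as was the median listed gene. Their ratio stayed narrow, with 9.04, 7.34 and 8.66 Ptgs2 reads for each Olr1 read in TMAO+IR replicates 1, 2 and 3 and 8.73, 7.86 and 6.14 in IR replicates 1, 2 and 3. Edn1 was instead lowest in IR replicate 1. Bdkrb2 had its lowest value there too, but its IR libraries differed by no more than counting error. Edn1 differed from Ptgs2 by 0.62, the largest difference among the 4 genes and more than the 0.49 of its median distance to a listed gene. From Olr1 and Bdkrb2 it differed by 0.48 and 0.41, under that median. Bdkrb2 differed from Ptgs2 by 0.59 and from Olr1 by 0.44, with its own median distance at 0.44. The Ptgs2 to Edn1 ratio was 4.52, 4.62 and 6.56 in TMAO+IR but 9.23, 5.30 and 2.22 in IR, a range of 4.16 times over the 6 libraries. These distances rest on 6 libraries of a list chosen for 1 contrast and carry no test.

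**Figure D3:**
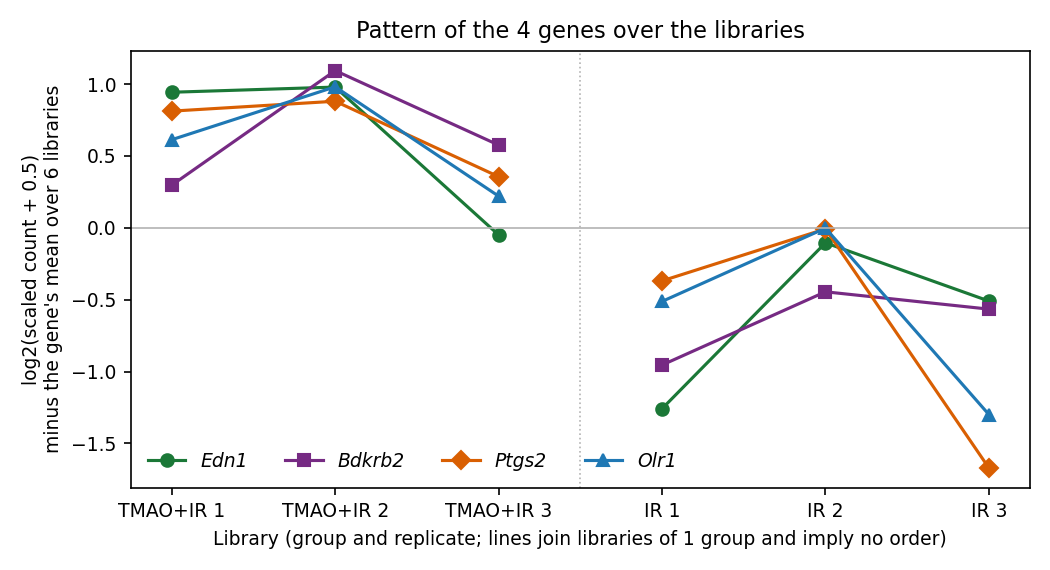
Centred log2 scaled counts (y axis) of the 4 genes in the 3 TMAO+IR libraries (left) and the 3 IR libraries (right). Ptgs2 and Olr1 run together with their lowest point in IR replicate 3, at -1.67 and -1.30, while Edn1 has its lowest point in IR replicate 1, at -1.26; the IR libraries of Bdkrb2, from -0.95 to -0.45, differ by no more than counting error.

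The listed genes nearest in pattern differed accordingly. Nearest to Edn1 were Fosl1, a subunit of the AP-1 transcription factor (0.18), Ccr2, the chemokine receptor of inflammatory monocytes (0.21), and Has1, a hyaluronan synthase (0.21). Fosl1 had 19.9, 13.9 and 6.36 FPKM in TMAO+IR and 3.70, 7.52 and 4.60 FPKM in IR, overlapping between groups in FPKM as Edn1 nearly did. Nearest to Bdkrb2 were Samsn1, an adaptor of haematopoietic cells, and Egr1, an early transcription factor (0.22 each), then Ackr1, the chemokine-binding receptor of venular endothelium (0.24). Ackr1 had 1.94, 2.58 and 1.83 FPKM in TMAO+IR, against 0.88, 0.80 and 0.81 FPKM in IR. Nearest to Ptgs2 were the interferon-induced GTPase gene Gvin1 (0.12), the Schlafen gene Slfn3 (0.14) and Pik3c2a, a phosphoinositide kinase (0.15). Nearest to Olr1 were Rps6ka3, a ribosomal S6 kinase (0.12), the imprinted gene Peg10 (0.12) and Btaf1, a regulator of the TATA-binding protein (0.13).

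The upstream sequences of Ptgs2 and Olr1 are shown because this pair had the smallest pattern difference among the 4 genes, though other listed genes were nearer to each. Each is the 250 bases before the gene's start as RefSeq gives it on GRCm38.p6, read along the gene's strand, at chr1:150099781-150100030 (plus) for Ptgs2 and chr6:129507166-129507415 (minus) for Olr1. Capitals mark matches on either strand to TGANTCA, the letters that the transcription factor AP-1 binds, to AGATAA, a sequence recognised by the family of factors named after it, and to GCGTG, the core bound by the aryl hydrocarbon receptor.
Ptgs2: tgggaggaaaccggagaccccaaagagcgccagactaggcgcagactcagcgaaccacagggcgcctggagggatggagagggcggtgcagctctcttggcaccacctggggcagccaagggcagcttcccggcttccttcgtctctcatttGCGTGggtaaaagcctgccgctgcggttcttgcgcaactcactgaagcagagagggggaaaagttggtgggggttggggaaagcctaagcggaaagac
Olr1: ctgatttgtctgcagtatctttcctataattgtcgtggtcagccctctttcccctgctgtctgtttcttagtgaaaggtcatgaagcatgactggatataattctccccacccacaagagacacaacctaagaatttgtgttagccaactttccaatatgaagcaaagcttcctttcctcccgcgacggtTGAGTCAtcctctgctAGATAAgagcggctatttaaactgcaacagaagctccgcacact

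In Olr1, TGAGTCA began at position -60 and AGATAA at -44, counted from the start. Such letters stood in 6.75% (AP-1) and 9.99% (GATA) of the 250 bases before 32851 mouse genes, on either strand. In Ptgs2, GCGTG began at -98, a match found in 28.2% of promoters. Among 139 promoters of listed genes these shares were 10.8% (AP-1), 11.5% (GATA) and 36.0% (GCGTG). Further letters lay just behind the start, outside the sequences above. In Ptgs2 the core of the cyclic AMP response element, TGACG, lay at position 14 on the minus strand, partly sharing bases with the E-box CACGTG at 17. In Edn1 AGATAA lay at position 9 on the minus strand, and in Bdkrb2 GCGTG lay at position 7. In the 300 bases that include the 50 after the start, TGACG stood in 20.8%, CACGTG in 7.15%, AGATAA in 11.2% and GCGTG in 32.4% of promoters. CCAAT stood at -203 in Edn1 and at -98 in Olr1, as in 33.8% of all 250-base windows and 42.4% of those of listed genes. TATAAA and GGNNTTTCC (NF-kB) were not found in the windows of the 4 genes. They were present in 12.4% and 4.93% of all 250-base windows and in 15.8% and 5.04% of those of listed genes. None of the letters searched was shared by all 4 genes. A match of letters is a description and not a binding site.

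The deposited annotation puts the 4 genes together only in pairs, apart from the broad term membrane. Positive regulation of smooth muscle contraction and regulation of blood pressure are given to Edn1 and Ptgs2, and vasoconstriction to Edn1 and Bdkrb2. Each of these terms is held by 2 of the 149 listed genes. Inflammatory response is given to Ptgs2 and Olr1 and to 12 listed genes (8.05%) in all, and the TNF signalling pathway to Edn1 and Ptgs2 and to 6 (4.03%).

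Other genes of vessels and of the cells that make these products were looked up in lists chosen with earlier results of these data known. None of 24 other vasoactive genes, among them the nitric oxide synthases, the angiotensin receptors and the natriuretic peptides, was in the table. None of 14 endothelial identity genes and none of 12 smooth muscle and pericyte genes was listed either. Of 20 endothelial activation genes 2 were listed, both higher, as were 81.9% of all listed genes. They were Il6, an inflammatory cytokine, with 51.4, 49.6 and 43.0 FPKM in TMAO+IR and 23.9, 21.3 and 18.7 FPKM in IR, and Ackr1. The leukocyte adhesion genes Vcam1, Icam1, Sele and Selp were not in the table and were not analysed here. Absence from the table does not show an equal level.

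Some markers of other cell types were in the table as well. Those named here were all higher, as were 81.9% of the listed genes, so their direction is near that of any listed gene. Of 14 monocyte and macrophage markers 3 were listed (Ccr2, Chil3 and Cybb), all higher, with a summed level of 6.84 to 10.8 FPKM in TMAO+IR and 2.60 to 4.60 FPKM in IR. Of 12 neutrophil markers 2 were listed (Mmp8 and Slfn4), both higher, with sums of 12.2 to 14.6 FPKM in TMAO+IR and 4.40 to 8.06 FPKM in IR. Of 11 genes on the fibroblast list 2 were in the table (Tnc and Thbs1), both higher, with sums of 172 to 284 FPKM in TMAO+IR and 63.2 to 146 FPKM in IR. Nearly all of this sum is Thbs1, since Tnc had 2.96 to 4.90 FPKM in TMAO+IR and 1.21 to 2.32 FPKM in IR. The sum thus reads 1 gene and not the cell type. The platelet marker Ppbp, 1 of 6, had 5.41 to 9.09 FPKM in TMAO+IR and 2.55 to 4.16 FPKM in IR. None of these listed markers was at 0 in any library, and the other markers were not analysed here. Their part in the levels of the 4 genes was not tested.

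The size of the difference depended on what the counts were scaled to. With TMM scaling within the list, which shifts the median log2 fold change of all listed genes by -1.01, the 4 log2 fold changes ran from 0.15 (Olr1) to 0.31 (Bdkrb2). The FDR and p-value of the top gene in the authors' deposited table imply about 12721 genes tested. With edgeR p-values adjusted over that many, 1 of the 4 genes passed 0.05, Bdkrb2, beside 25.5% of the listed genes called higher. Ptgs2 had the smallest FDR of the 4 in the authors' deposited table but the largest of these edgeR adjusted p-values, at 0.249. The list was chosen on this same contrast, so these calls describe the refit and test none of the 4 genes. The SE values come from a fit that gave every listed gene the spread of the common trend, so they hardly reflect the replicate spread of a single gene.

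**Figure D4:**
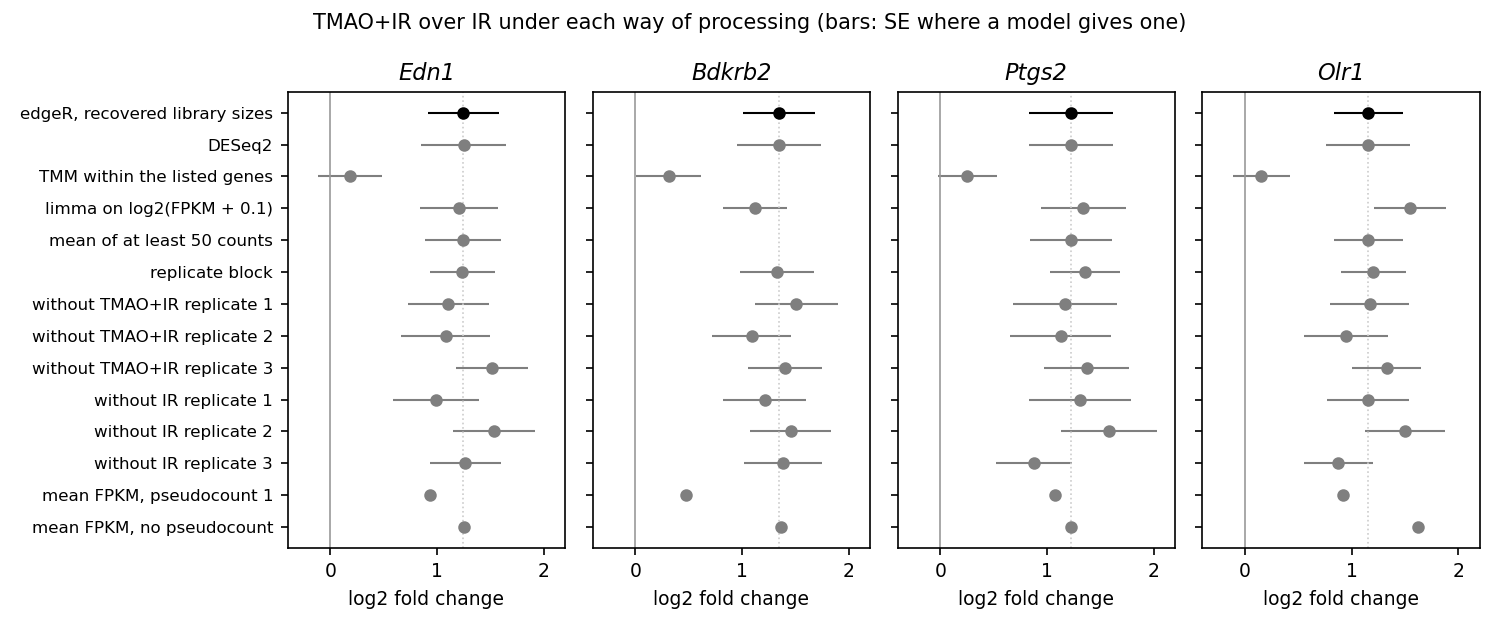
Log2 fold change of TMAO+IR over IR (x axis) for the 4 genes under each way of processing (rows), with the SE where a model gives one. All points are above 0; those with TMM scaling within the selected list lie lowest, at 0.15 to 0.31, and Bdkrb2 has no value with a mean of at least 50 counts.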

How the data were processed

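Poly(A)-selected RNA from the reperfused region was sequenced in 6 libraries, per the labels' protocols. Groups and replicate numbers come from the sample titles, and the table's T-IR columns were matched to TMAO+IR, the only group other than IR. Per the submitters' processing notes the build was GRCm38 and the tools, with no role given, included StringTie 1.3.1, HISAT2, Bowtie2 2.2.8, fastp 0.18.0, edgeR and DESeq2. The authors deposited whole-number read counts and FPKM values for 149 genes, with group mean FPKM, the log2 fold change of these means, and a p-value with its FDR from their own test. The sources used here do not say how overlapping genes were counted.

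Relative library sizes came from dividing count by FPKM in 86 genes that had 1 FPKM or more throughout, and absolute sizes from 12 single-transcript genes. Column sums are no depth in a selected list. Counts of the whole table were fitted with edgeR 4.0.16 (quasi-likelihood, R 4.3.3, Benjamini-Hochberg over 149 genes), with no filter. On simulated data of 1000 genes for TMAO+IR over IR this recovered 96% of genes changed by 2 and 51% of those changed by 1 on the log2 scale. Alternatives used DESeq2 1.42.0 and limma 3.58.1 on log2(FPKM + 0.1). Each SE was derived from the F statistic of the test, and Poisson intervals cover counting error only.

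The 4 genes and all gene lists were chosen with earlier results of these data known. By rule the text names these genes, the 3 listed genes nearest in pattern to each (from log2(scaled count + 0.5)), listed members of the gene lists, and the genes at the table's limits. All 149 gene identifiers matched GENCODE M21 (GRCm38) with the same symbols. Promoters are from RefSeq (GRCm38.p6), and all 4 genes had one.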

Additional observations from a re-analysis of the deposited data

How the results depend on the processing

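All alternatives were planned. Since the list was chosen on this same contrast, the calls below describe the refits and test none of the 4 genes. The 4 log2 fold changes stayed above 0 under every alternative. TMM scaling within the list gave 0.18 for Edn1, 0.31 for Bdkrb2, 0.25 for Ptgs2 and 0.15 for Olr1, left 34 of the 149 listed genes past an adjusted p of 0.05 (7 higher, 27 lower), none of the 4 genes past it and none of the 4 without overlap, by its construction, since it sets the mean change of a selected list near 0. DESeq2 and limma on FPKM each called the 4 genes and all 149. Over the implied 12721 genes 1 of the 4 and 50 of the 149 passed. Bdkrb2 stood at 0.48 on the log2(mean FPKM + 1) scale, and it has no value with a mean of at least 50 counts, since its own mean is lower. Leaving out 1 library gave 0.99 to 1.53 for Edn1, 1.09 to 1.51 for Bdkrb2, 0.88 to 1.58 for Ptgs2 and 0.875 to 1.502 for Olr1, with the 4 genes past the threshold each time, as were 117 to 148 of the 149 listed genes. The replicate block gave 1.24 for Edn1, 1.33 for Bdkrb2, 1.36 for Ptgs2 and 1.20 for Olr1, called 149 genes and changed no call. Same-numbered libraries had correlations of deviations of -0.32, 0.33 and -0.08 over 117 genes, and 1 of 3 pairs was its own best match. Each deviation was taken from the mean of the 3 libraries of a group, which ties the correlations of a library to one another. The check therefore cannot decide whether the numbers pair the libraries. Depth limits Bdkrb2 most.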

Other observations

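The 3′ untranslated regions of the 4 genes, looked at after the data were seen, differed in the pentamer ATTTA, the core of AU-rich elements through which short-lived mRNAs are bound by decay factors. Ptgs2 had 14 ATTTA in 2445 bases, or 5.73 per kilobase, a density above that of 94.6% of 20952 protein-coding mouse genes and of 94.2% of the listed genes that were higher. Olr1 had 5 in 2422 bases (2.06 per kilobase), Edn1 had 3 in 1111 bases (2.70) and Bdkrb2 had 2 in 2557 bases (0.78). The median was 2.18 per kilobase in the 121 listed higher genes with an annotated 3′ untranslated region, 0 in the 26 listed lower genes and 1.22 in all protein-coding genes, so Edn1 and Olr1 stood near the listed higher genes and Bdkrb2 below all but 17.4% of them. ATTTA holds only A and T, and the share of G and C bases in these regions differed too. Its median was 38.8% in the listed higher, 47.5% in the listed lower and 43.4% in all protein-coding genes. In Ptgs2 it was 32.8%, in Olr1 38.5%, in Edn1 41.5% and in Bdkrb2 52.8%. The part of base composition in the ATTTA density was not tested. These values come from the longest annotated coding transcript of each gene (GENCODE M21). The densest 30 bases of the Ptgs2 region, from base 16 to base 45 after the stop codon, hold 4 ATTTA, some overlapping, which the capitals mark.
Ptgs2: ATTTATTTATTTAtgtgaagaATTTAattt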
